A study of Mus musculus with 18 samples.

Results

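Of 20764 H3K27me3 peaks in the EPZ6438 list, 4961 shared no base with any of the 143399 peaks in the DMSO list, and these are called EPZ6438-only peaks here. The peaks were chosen by their called positions in both H3K27me3 lists, so the number, width and distance of these peaks describe the choice and carry no test. The remaining 15803 EPZ6438 peaks overlapped a DMSO peak by at least 1 bp and are called shared peaks. Gene ends and RNA were not used to choose the peaks.

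MC3T3-E1 subclone 4, a pre-osteoblast line from mouse calvaria of C57BL/6 background, was used at passage 9, and a subclone represents a single lineage of cells. Cells were kept in osteogenic medium for 3 days with 0.25% DMSO (the vehicle) or with 2.5 µM EPZ6438, an inhibitor of the methyltransferase EZH2, and no genetic change separates the arms. The labels do not say if vehicle was also present in the EPZ6438 medium. RNA was sequenced from 3 samples per arm, and H3K27me3 and H3K4me3 were immunoprecipitated from 2 samples per mark and arm, each arm with input controls. Each mark and arm has 1 deposited peak list from merged samples, with positions only, so peak height and the spread between samples were not analysed here.

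H3K27me3, trimethylation of lysine 27 of histone H3, is placed by Polycomb repressive complex 2, whose catalytic subunit is EZH2 or its relative EZH1. The mark is found in broad domains and at CpG-rich promoters of silent developmental genes. H3K4me3, trimethylation of lysine 4, is found at the starts of active genes and, together with H3K27me3, at promoters described as bivalent.

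The 250 bases before the start of 4 genes are shown because an EPZ6438-only peak covered most of each stretch while no DMSO H3K27me3 peak touched it. They stand for 3 kinds of RNA result: Prex1 and Gli2 were at or near 0 in DMSO and had reads under EPZ6438, Ndrg4 was expressed and rose, and Iqsec1 was expressed and did not pass the test. The sequences are from RefSeq (GRCm38.p6), run 5′ to 3′ in the direction of the gene, and have CG dinucleotides in capitals.
Prex1: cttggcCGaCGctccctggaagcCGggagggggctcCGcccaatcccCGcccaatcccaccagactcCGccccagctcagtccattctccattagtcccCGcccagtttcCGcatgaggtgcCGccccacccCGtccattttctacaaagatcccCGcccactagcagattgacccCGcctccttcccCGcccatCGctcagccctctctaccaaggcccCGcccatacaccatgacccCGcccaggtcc
Ndrg4: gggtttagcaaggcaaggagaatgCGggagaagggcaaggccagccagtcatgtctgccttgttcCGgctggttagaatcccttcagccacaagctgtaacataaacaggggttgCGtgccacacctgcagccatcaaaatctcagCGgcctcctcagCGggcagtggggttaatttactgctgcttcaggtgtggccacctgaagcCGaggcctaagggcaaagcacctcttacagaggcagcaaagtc
Gli2: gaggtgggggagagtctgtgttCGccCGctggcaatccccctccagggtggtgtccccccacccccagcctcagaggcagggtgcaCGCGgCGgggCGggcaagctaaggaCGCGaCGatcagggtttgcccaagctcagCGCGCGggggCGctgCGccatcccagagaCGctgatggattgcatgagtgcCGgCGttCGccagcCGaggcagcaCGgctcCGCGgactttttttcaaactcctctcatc
Iqsec1: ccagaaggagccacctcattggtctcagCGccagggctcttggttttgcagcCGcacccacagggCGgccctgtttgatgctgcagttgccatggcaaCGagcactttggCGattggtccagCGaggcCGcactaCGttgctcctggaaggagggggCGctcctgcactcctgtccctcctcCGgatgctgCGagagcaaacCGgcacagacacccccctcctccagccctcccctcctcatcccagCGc

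The Prex1 stretch is chr2:166713833-166714082 on the minus strand, holds 16 CG and has 209 of its 250 bases inside the peak chr2:166713423-166714041. The Ndrg4 stretch, chr8:95676724-95676973 on the plus strand, holds 6 CG and has 233 bases inside the peak chr8:95676382-95676956. The Gli2 stretch, chr1:119053620-119053869 on the minus strand, holds 22 CG and lies wholly inside the peak chr1:119053574-119054043. The Iqsec1 stretch, chr6:90810124-90810373 on the minus strand, holds 13 CG and has 245 bases inside the peak chr6:90810129-90810840. The 4 stretches therefore span CG-rich and CG-poor starts. No H3K4me3 peak of either list overlapped any of the 4 stretches, and which start the RNA of each gene came from was not tested.

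Over the RefSeq windows of 300 bases, from 250 before to 50 after a start, 93 windows of 88 gene symbols overlapped an EPZ6438-only peak. The CG dinucleotide, which reads the same on both strands, occurred at least 15 times in 41.9% of these 93 windows. The same share was 34.6% of all 32851 windows, 56.8% of the 243 windows under a shared peak and 24.3% of the 881 windows under a DMSO peak alone. The median CG number was 8 (quartiles 4 and 24) under EPZ6438-only peaks, 20 under shared peaks and 5 under DMSO peaks alone. By CG number, the starts under EPZ6438-only peaks thus lay between those under the other peak groups.

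EPZ6438-only peaks were narrow. Their width ran from 185 to 2407 bp with a median of 305 bp (quartiles 190 and 590), against a median of 470 bp for shared peaks and 399 bp for DMSO peaks. The narrowest entry was 185 bp in the EPZ6438 list and 168 bp in the DMSO list. At most 200 bp were spanned by 1443 EPZ6438-only peaks (29.1%), 13.5% of shared peaks and 22.3% of DMSO peaks. At least 1000 bp were spanned by 181 EPZ6438-only peaks (3.65%), 13.9% of shared peaks and 16.8% of DMSO peaks. In all, EPZ6438-only peaks covered 2.09 Mb, shared peaks 9.54 Mb and DMSO peaks 89.4 Mb.

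Most EPZ6438-only peaks lay close to a DMSO peak. The median distance to the nearest one was 1812 bp (quartiles 850 and 4377). Of the 4961 peaks, 1482 (29.9%) were nearer than 1 kb, 3857 (77.7%) nearer than 5 kb and 4723 (95.2%) nearer than 20 kb. Of the bases between neighbouring DMSO peaks, 10.0%, 30.1% and 57.4% lie within those 3 distances. Only 15 EPZ6438-only peaks were 100 kb or more away, a distance within which 87.1% of those bases fall. Of all 4961 peaks, 4957 sat between 2 DMSO peaks, in gaps with a median length of 9858 bp. Over all 143378 gaps the median was 4450 bp. The first median counts a gap once for each peak in it, and longer gaps have more room for peaks. The 2 medians therefore do not show a preference for long gaps. On both sides a DMSO peak was nearer than 5 kb for 1966 peaks (39.6%).

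**Figure D1:**
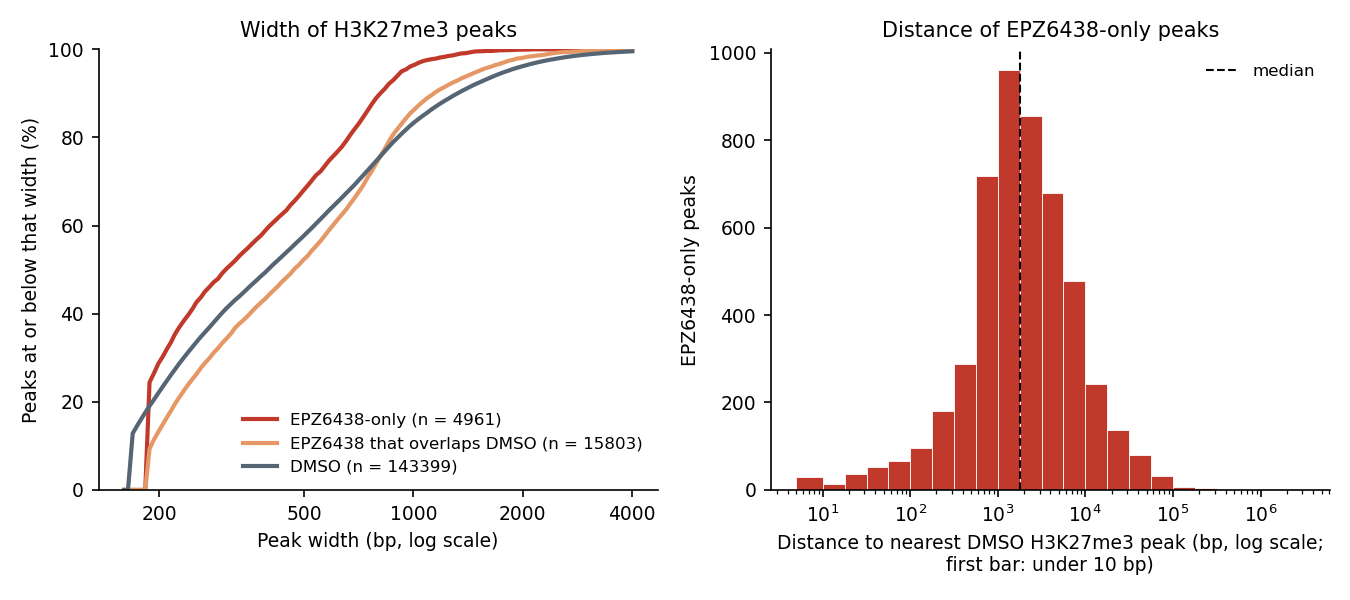
Left, share of H3K27me3 peaks (%) at or below each width (bp, log scale) for EPZ6438-only peaks, shared EPZ6438 peaks and DMSO peaks; right, number of EPZ6438-only peaks by distance to the nearest DMSO peak (bp, log scale). The EPZ6438-only curve lies above the shared curve, with medians of 305 and 470 bp, and the distances centre on a median of 1812 bp (dashed).

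The other peaks of the EPZ6438 list, which is the sparser list, were farther away. The median distance from an EPZ6438-only to a shared peak was 17827 bp, and 1215 (24.5%) had one within 5 kb. Another EPZ6438-only peak lay within 5 kb of 455 (9.17%). Widths went with distance. The median width was 362 bp for the 1482 peaks nearer than 1 kb, 304 bp for the 2375 from 1 to 5 kb, 252 bp for the 866 from 5 to 20 kb and 216.5 bp for the 238 farther out. Peaks of at least 1000 bp were 5.06%, 3.75%, 1.73% and 0.840% of those classes. Width and distance both entered the choice of peaks, and no cause of their relation was tested.

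At the limit of the rule, 122 EPZ6438-only peaks had a gap of at most 50 bp to a DMSO peak. Another 266 EPZ6438 peaks were left out for an overlap of 1 to 50 bp. Just inside were chr2:69594312-69595052, which abuts a DMSO peak, and chr3:18384790-18385458 and chr6:68451184-68451788, each 1 bp from one. Just outside, with 1 bp of overlap, were chr2:26716833-26717805, chr1:187204225-187204661 and chr7:120777999-120778851.

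The widest EPZ6438-only peak, chr6:83616601-83619007 with 2407 bp, lay between genes, 26738 bp from the nearer end of Clec4f, a C-type lectin gene. Next came chr5:112497205-112499334 (2130 bp), inside Sez6l, and chr1:85170509-85172631 (2123 bp), inside C130026I21Rik. The peak chr6:113744150-113746184 (2035 bp) lay 502 bp from an end of Atp2b2, a plasma membrane calcium pump gene, and chr6:120746059-120748016 (1958 bp) lay inside Cecr2. The protein-coding gene ends nearest to the peaks on chromosomes 5 and 1 belonged to Gm6588 and A530032D15Rik. RNA of Clec4f, Gm6588 and Atp2b2 was listed at 0 in all 6 libraries, Cecr2 reached 0.00400 RPKM in 1 DMSO library, and A530032D15Rik had 0.246 to 0.449 RPKM in DMSO and 0.237 to 0.336 under EPZ6438. None of these wide peaks overlapped an H3K4me3 peak of either list.

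The 5 peaks farthest from any DMSO peak were chrX:33928067-33928803 (1834182 bp), chr12:22852543-22852994 (1260841 bp), chrX:15498146-15498330 (378480 bp), chrX:108714348-108714532 (242633 bp) and chrX:108682006-108682440 (218140 bp). Their nearest protein-coding genes were Gm2964, Gm10330, Cypt1, Brwd3 and Gm379, of which only Brwd3 was listed above 0 (1.20 to 1.74 RPKM in DMSO, 1.18 to 1.68 under EPZ6438, limma adjusted p = 0.859). The chromosome 12 peak overlapped an H3K4me3 peak of both lists. Chromosome X was sparse in both arms, with 111 EPZ6438 and 1813 DMSO peaks. EPZ6438-only peaks made up 52 of the 111 (46.8%), against 18.4% (chromosome 11) to 30.8% (chromosome 13) on the autosomes. The median distance to a DMSO peak was 5122.5 bp on chromosome X. The largest number, 587, was on chromosome 6. No EPZ6438 peak was listed on chromosome Y.

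Gene placement of EPZ6438-only peaks was close to that of the other peaks. A peak was counted at a gene end when it touched the window from 1 kb before to 1 kb after either end of a gene in the deposited table. This held for 324 EPZ6438-only peaks, 6.53% (95% Wilson interval 5.88 to 7.25), against 6.74% (6.36 to 7.14) of shared and 5.72% (5.60 to 5.84) of DMSO peaks. At protein-coding ends the shares were 4.29%, 4.03% and 3.28%. The intervals cover counting error only, and the lists hold no replicates. The midpoint lay inside a protein-coding gene for 1720 EPZ6438-only peaks (34.7%), 34.1% of shared and 31.5% of DMSO peaks. Exon and intron positions were not used here. Far from genes, EPZ6438-only peaks were closer to DMSO peaks than to shared peaks in their share: 1077 (21.7%) lay more than 100 kb from a protein-coding end, against 22.6% of DMSO and 10.8% of shared peaks.

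The 1720 peaks inside protein-coding genes fell in 1097 genes, most of them with low listed RNA. The host was listed at 0 in all DMSO libraries for 52.6% of these peaks, against 51.6% for shared and 45.1% for DMSO peaks. It reached a DMSO mean of 1 RPKM for 129 peaks (7.5%), against 6.89% and 12.5%. RPKM here counts reads for each kilobase of a gene, scaled to 1000000 assigned reads in the library. Of all 22019 protein-coding genes, each counted once, 48.1% reached that level. The shares of peaks count a host once for each of its peaks, so the measures are not alike. Where genes overlapped, the host was the one with the highest DMSO mean.

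EPZ6438-only peaks rarely carried H3K4me3. A DMSO H3K4me3 peak overlapped 148 of them, 2.98% (95% Wilson interval 2.55 to 3.49), against 22.6% (21.9 to 23.2) of shared peaks and 11.9% of DMSO H3K27me3 peaks. An EPZ6438 H3K4me3 peak overlapped 32, 0.645% (0.457 to 0.909), against 0.747% (0.624 to 0.893) of shared peaks. Peaks in both H3K4me3 lists accounted for 13. The gap in DMSO H3K4me3 was present at each width. It was 1.87% against 19.1% for EPZ6438-only and shared peaks of 185 to 200 bp, 2.50% against 21.9% from 201 to 400 bp, 3.60% against 18.7% from 401 to 800 bp, and 5.69% against 30.1% above.

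**Figure D2:**
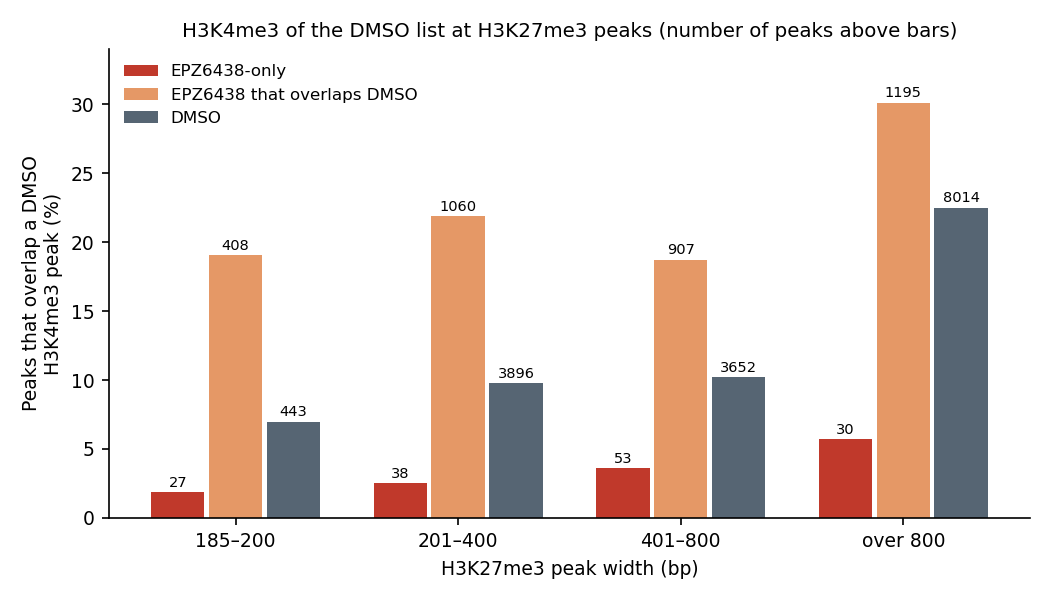
Share of H3K27me3 peaks (%) that overlap a DMSO H3K4me3 peak, by H3K27me3 peak width (bp), for EPZ6438-only, shared EPZ6438 and DMSO peaks, with the number of overlapping peaks above each bar. The EPZ6438-only bars are the lowest in each width class, from 1.87% to 5.69%.

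The 2 H3K4me3 lists differ from each other in ways that touch this comparison. The DMSO list has 40113 peaks with a median of 212 bp, of which 21.1% lie at a protein-coding end and 48.0% overlap a DMSO H3K27me3 peak. The EPZ6438 list has 16216 peaks with a median of 401 bp, of which 68.7% lie at such an end and 0.968% overlap an EPZ6438 H3K27me3 peak. EPZ6438-only peaks avoid DMSO H3K27me3 peaks by their definition, and its part in the low DMSO H3K4me3 share was not tested.

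Of the EPZ6438-only peaks, 19 overlapped an H3K4me3 peak of the EPZ6438 list and none of the DMSO list. Of the nearest protein-coding genes 11 were tested, 5 with a log2 change above 0 and 6 below, and 2 were called, Igf2bp2 and Ifnlr1. Over all tested genes 7.04% were called, and whether these sites differ from that share was not tested. The genes named from these were chosen after their values were seen. One peak lay inside Igf2bp2, which encodes an RNA-binding protein, 1509 bp from a gene end. Igf2bp2 had 2.33, 2.28 and 2.35 RPKM in DMSO and 4.38, 3.73 and 4.64 under EPZ6438, so the arms did not overlap, and it rose by 0.84 on the log2 scale (SE 0.13, limma adjusted p = 0.010). Another lay inside Rragd, a Rag GTPase gene, with 0.0522 to 0.122 RPKM in DMSO and 0.239 to 0.264 under EPZ6438 (log2 change 0.87, SE 0.21, limma adjusted p = 0.0564). Pcdh18, a protocadherin gene 326840 bp from its peak, had 27.6 to 33.7 RPKM in DMSO and 22.5 to 25.3 under EPZ6438 (log2 change -0.39, SE 0.10, limma adjusted p = 0.0638). The homeobox genes Evx2 and Gsx1, each nearest to such a peak, were listed at 0 in all 6 libraries. At the start of Begain, a gene for a postsynaptic protein, RNA was 0.228 to 0.336 RPKM in DMSO and 0.304 to 0.342 under EPZ6438 (limma adjusted p = 0.631), and the table holds an overlapping entry BEGAIN, so its reads are uncertain. DMSO H3K4me3 peaks lay within 1 kb of an end of Rragd (2 peaks) and Ifnlr1 (1 peak), without touching the EPZ6438-only peak. Ifnlr1 is described with the genes that rose.

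A total of 357 of 43309 genes had an EPZ6438-only peak within 1 kb of an end, each gene with 1 such peak. Because neighbouring genes can share a peak, 30 of the 324 peaks served more than 1 gene. Strand was found in the RefSeq table for 191 genes, of which 104 had the peak at the start, 81 at the end and 6 at both. Protein-coding genes made up 223 (62.5%, against 50.8% of all genes). A DMSO H3K27me3 peak was within 1 kb of either end in 161 genes (45.1%), and at the same end as the EPZ6438-only peak in 100 (28.0%). A DMSO H3K4me3 peak was at an end of 28 genes (7.84%, against 20.2% of all genes) and an EPZ6438 H3K4me3 peak at an end of 15 (4.20%, against 24.4%).

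RNA of these 357 genes was mostly low or listed at 0. In all 6 libraries 192 (53.8%) were listed at 0, against 46.6% of all genes. The broadly expressed ubiquitin ligase gene Rnf130 was among them, so a listed 0 is not read as absent RNA. A DMSO mean of at least 1 RPKM was reached by 25 (7.0%), against 28.7% of all genes. Only 52 (14.6%) had at least 10 reads in at least 3 libraries and were tested, against 14213 (32.8%) of all genes. In bulk RNA, fewer cells of a type and less RNA per cell cannot be told apart.

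Of the 52 tested genes, 12 rose and 1 fell under EPZ6438 at a limma adjusted p under 0.05, and 39 did not pass. Over all 14213 tested genes 7.04% were called, 3.80% higher and 3.24% lower. Called genes were thus 25% of the 52, with 23.1% higher and 1.92% lower. The 52 were lower in RNA, with a median DMSO level of 0.717 RPKM against 7.65 for all tested genes. At a DMSO mean of at least 1 RPKM, 2 of 24 were called, against 6.26% of all 12109 tested genes at that level. Most called genes of the 52 lay below it, where the share over all tested genes was not counted. The median log2 change of the 52 was 0.19 (quartiles -0.14 and 0.68) against -0.03 over all tested genes, and 36 of 52 were above 0. The libraries of the arms were fully separated, with no overlap of their 3 and 3 values, in 23 of 52 genes, against 26.7% of all tested genes. The filter bears on these counts, since 4 of the 12 genes that rose (Prex1, Col9a1, Hoxd3os1 and Enpp5) passed it through the EPZ6438 libraries alone. Among the other 48 genes 8 rose (16.7%) and 1 fell (2.08%). Their median log2 change was 0.17 (quartiles -0.15 and 0.50), 32 were above 0 and 19 had fully separated arms. Over all 14123 tested genes that did not pass through the EPZ6438 libraries alone, 3.40% rose and 3.26% fell. The median log2 change of those genes was -0.03, and 3702 had fully separated arms. The count of 13 called genes was 7 without DMSO replicate 2, 7 without EPZ6438 replicate 2 and 8 without EPZ6438 replicate 3. The labels do not say that the samples are separate cultures, so p-values measure only how these samples vary, and part of that can be technical.

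The same counts were taken for genes with other H3K27me3 peaks at their ends. With a shared peak and no EPZ6438-only peak, 22 of 101 tested genes rose and 2 fell, with a median log2 change of 0.15. With a DMSO peak alone, 111 of 981 (11.3%) rose and 15 fell, with a median of 0.05. With no H3K27me3 peak, 395 of 13079 (3.02%) rose and 443 fell, with a median of -0.03. Here too the filter bears on the counts, since 13 of the 101 and 33 of the 981 genes passed it through the EPZ6438 libraries alone. Without such genes 12 of 88 and 92 of 948 rose, with median log2 changes of 0.10 and 0.04. The difference between these gene groups was not tested.

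**Figure D3:**
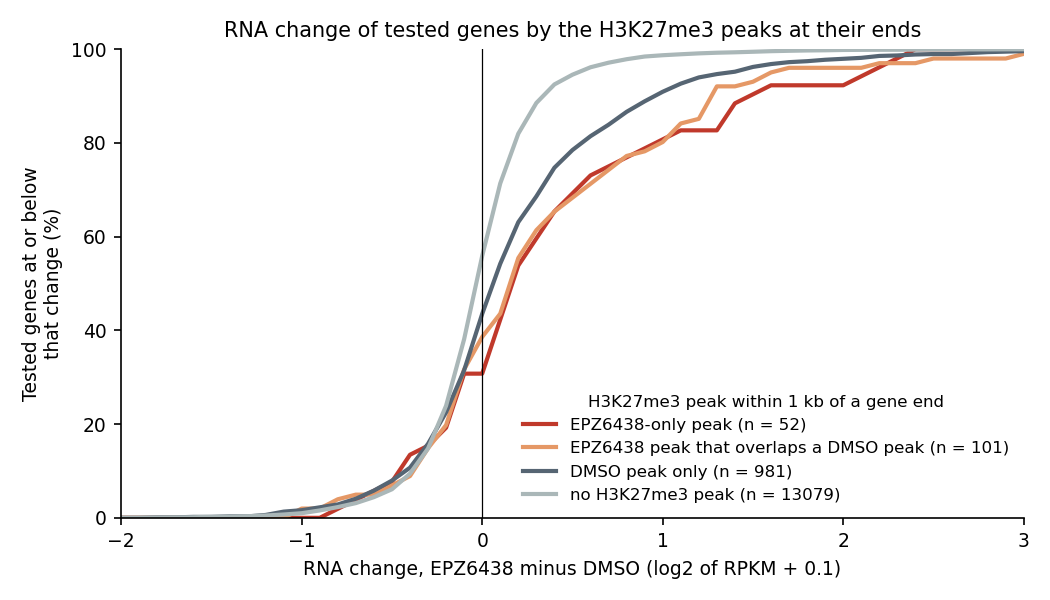
Share of tested genes (%) at or below each RNA change (EPZ6438 minus DMSO, log2 of RPKM + 0.1), by the H3K27me3 peaks within 1 kb of their ends. The curves of the 52 genes with an EPZ6438-only peak and the 101 with a shared peak run close together, and both lie to the right of the 13079 genes with no peak. The curves include 4 of the 52 and 13 of the 101 genes that passed the read filter through the EPZ6438 libraries alone.

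Within the 52 tested genes, the peak's place went with different shares. With the peak at the start, 6 of 20 rose and 1 fell, and with the peak at the end 2 of 9 rose. With no DMSO H3K27me3 peak at either end, 9 of 33 rose and 1 fell, and with one 3 of 19 rose. With the nearest DMSO peak under 1 kb from the EPZ6438-only peak, 5 of 14 rose. From 1 to 5 kb 6 of 27 rose and 1 fell, and at 5 kb or more 1 of 11 rose. The filter bears on these counts too. Col9a1 and Hoxd3os1, the 2 that rose with the peak at the end, passed it through the EPZ6438 libraries alone. So did Prex1 and Enpp5 among the 5 that rose with a DMSO peak under 1 kb away. Such genes also made up 1 of the 20, 3 of the 33, 1 of the 19 and 2 of the 27 tested genes. These subgroups are small, and the differences between them were not tested.

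Pdzd2 had the lowest adjusted p of the called genes. It encodes a protein with several PDZ domains, and its EPZ6438-only peak (207 bp) lay inside the gene, 356 bp from the start and 695 bp from a DMSO peak. It had 0.133, 0.154 and 0.184 RPKM in DMSO and 1.22, 1.24 and 1.20 under EPZ6438. All 3 EPZ6438 libraries stood far above all 3 DMSO libraries, and Pdzd2 rose by 2.37 on the log2 scale of RPKM + 0.1 (SE 0.16, limma adjusted p = 0.000637). Prex1, a guanine nucleotide exchange factor for Rac, had 3, 1 and 3 reads in DMSO and 69, 138 and 83 under EPZ6438, or 0.0155, 0.00438 and 0.0115 against 0.319, 0.557 and 0.404 RPKM. Its peak covers the printed start. Prex1 rose by 2.23 (SE 0.23, limma adjusted p = 0.00219), a scale that understates the change of genes this low. With a pseudocount of 0.01 the log2 change was 4.42 for Prex1 and 2.90 for Pdzd2, so the order of the genes by size depends on the pseudocount.

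Ndrg4, a member of the NDRG family, was the most abundant of the genes that rose. It had 13.8, 14.6 and 13.9 RPKM in DMSO and 20.9, 20.9 and 20.2 under EPZ6438, with no overlap and little spread. The log2 change was 0.55 (SE 0.07, limma adjusted p = 0.00643). Its peak ended 24 bp before the annotated start, 2107 bp from a DMSO peak. Ano3, which encodes a protein of the anoctamin family of membrane proteins, had 0.339, 0.480 and 0.371 RPKM in DMSO and 1.44, 1.11 and 0.941 under EPZ6438. Its arms also did not overlap, and it rose by 1.34 (SE 0.21, limma adjusted p = 0.0117), with an 808 bp peak 66 bp from the start. With every gene that had 1 read in any library entered in the test, the limma adjusted p of Ano3 was 0.0609.

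**Figure D4:**
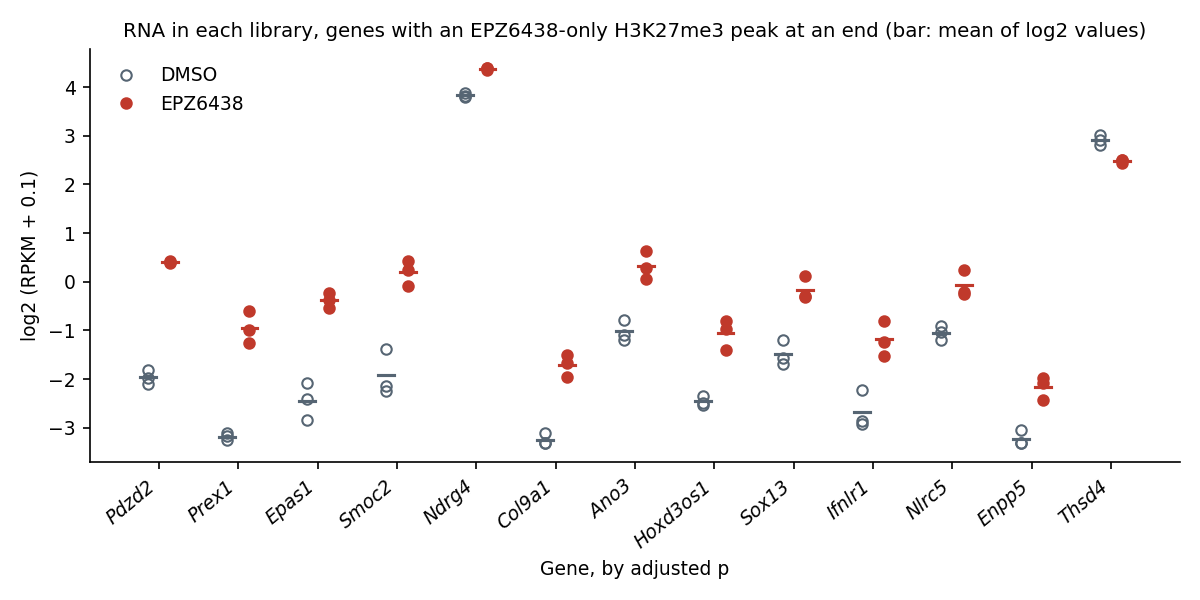
RNA in each library as log2(RPKM + 0.1) for the 13 called genes with an EPZ6438-only H3K27me3 peak at an end; open points are the 3 DMSO libraries, filled points the 3 EPZ6438 libraries and bars the mean of the log2 values. The arms do not overlap in any of the 13 genes, and Thsd4 alone lies lower under EPZ6438.

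Epas1 and Sox13 are transcription factor genes, and no list of such genes was counted. Epas1, which encodes a hypoxia-inducible factor subunit, had 0.0401, 0.136 and 0.0891 RPKM in DMSO and 0.591, 0.671 and 0.752 under EPZ6438. The highest DMSO library stayed below the lowest EPZ6438 library, and Epas1 rose by 2.06 (SE 0.24, limma adjusted p = 0.00366). Its 569 bp peak lay 894 bp outside a gene end, 328 bp from a DMSO peak. Sox13, a SoxD transcription factor gene, had 0.210, 0.240 and 0.338 RPKM in DMSO and 0.716, 0.989 and 0.706 under EPZ6438. It rose by 1.32 (SE 0.22, limma adjusted p = 0.0142), with a 765 bp peak 168 bp before the start. The call of Sox13 was lost without DMSO replicate 2, without EPZ6438 replicate 2, without EPZ6438 replicate 3 and without the read filter, with limma adjusted p from 0.0516 to 0.0743.

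Smoc2, Col9a1 and Thsd4 encode proteins of the extracellular matrix, and no list of such genes was counted. Smoc2, a matricellular protein gene of the SPARC family, had 0.282, 0.127 and 0.111 RPKM in DMSO and 1.09, 0.848 and 1.25 under EPZ6438, and rose by 2.13 (SE 0.27, limma adjusted p = 0.00564). Its 216 bp peak lay 23 bp outside a gene end. Col9a1, a chain of the cartilage collagen type IX, had 0, 0 and 2 reads in DMSO and 23, 31 and 16 under EPZ6438, and rose by 1.55 (SE 0.21, limma adjusted p = 0.00756). Its 187 bp peak lay 623 bp past the end of the gene. Thsd4, which encodes an ADAMTS-like protein of microfibrils, had 6.95, 8.01 and 7.44 RPKM in DMSO and 5.58, 5.58 and 5.32 under EPZ6438. It fell by 0.43 (SE 0.10, limma adjusted p = 0.0459), with a 297 bp peak across its start. Leaving out any 1 library other than DMSO replicate 1 ended the call of Thsd4, as did median-of-ratios scaling, the replicate block and testing without the read filter, with limma adjusted p up to 0.214.

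Ifnlr1, Nlrc5 and Enpp5 also rose, with calls that depended on single libraries. Ifnlr1, the receptor subunit for interferon lambda, had 0.0381, 0.0323 and 0.113 RPKM in DMSO and 0.250, 0.475 and 0.322 under EPZ6438, and rose by 1.48 (SE 0.28, limma adjusted p = 0.0257). Its 185 bp peak lay 80 bp from a DMSO peak and overlapped an EPZ6438 H3K4me3 peak. A DMSO H3K4me3 peak also lay within 1 kb of an end of Ifnlr1. Nlrc5, a transactivator of MHC class I genes, had 0.334, 0.435 and 0.387 RPKM in DMSO and 0.739, 1.08 and 0.764 under EPZ6438, and rose by 0.97 (SE 0.20, limma adjusted p = 0.0316). Enpp5, a member of the ectonucleotide pyrophosphatase family, had 2, 0 and 0 reads in DMSO and 14, 10 and 15 under EPZ6438, and rose by 1.06 (SE 0.23, limma adjusted p = 0.0365). The arms did not overlap in these genes. The calls of Nlrc5 and Enpp5 were lost whichever library was left out, and Enpp5 also under the replicate block and with a pseudocount of 1. The call of Ifnlr1 was lost when either of DMSO replicates 1 and 2 was left out, and likewise for either of EPZ6438 replicates 2 and 3. Without the read filter none of the 3 was called. The highest limma adjusted p values were 0.110 for Ifnlr1, 0.138 for Nlrc5 and 0.139 for Enpp5. The listed interferon response genes, none with an EPZ6438-only peak at an end, went mostly the other way. Of 17 tested, 1 rose and 7 fell, against 3.80% higher and 3.24% lower over all tested genes.

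In the Hoxd cluster 1 peak, chr2:74704077-74704288, served Hoxd8 and the antisense gene Hoxd3os1. Hoxd8, a homeobox gene, was listed at 0 in all 6 libraries. Hoxd3os1 had 0.0740, 0.0783 and 0.0961 RPKM in DMSO and 0.413, 0.476 and 0.278 under EPZ6438, and rose by 1.40 (SE 0.22, limma adjusted p = 0.0120). The call was lost without the read filter, without DMSO replicate 2 and when either of EPZ6438 replicates 1 and 2 was left out, with limma adjusted p up to 0.0605. Hoxd3os1 overlaps Hox genes on the other strand and the strand setting of the counting is not given in the sources used here, so its reads are of uncertain origin. Of 39 Hox genes, 16 were tested and 1 rose, against 3.80% higher over all tested genes.

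DMSO H3K27me3 peaks were numerous over the called genes. From 1 kb before to 1 kb after each of the 13 genes, the DMSO list had 2 to 54 peaks (median 12, 227 in all) and the EPZ6438 list 1 to 8 (median 3, 40 in all). The EPZ6438 number was the smaller in all 13, as it was in 97.4% of all 3097 genes with at least 2 DMSO peaks and 1 EPZ6438 peak. The whole DMSO list is 6.91 times as long as the EPZ6438 list, so this is no result about the 13 genes. Pdzd2 had 54 DMSO and 3 EPZ6438 peaks, Thsd4 41 and 6, and Prex1 37 and 8, of which 4 were EPZ6438-only. Over all 357 genes the EPZ6438 number was smaller in 175, and 94 had no DMSO peak. Longer genes hold more peaks, and no test was made.

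**Figure D5:**
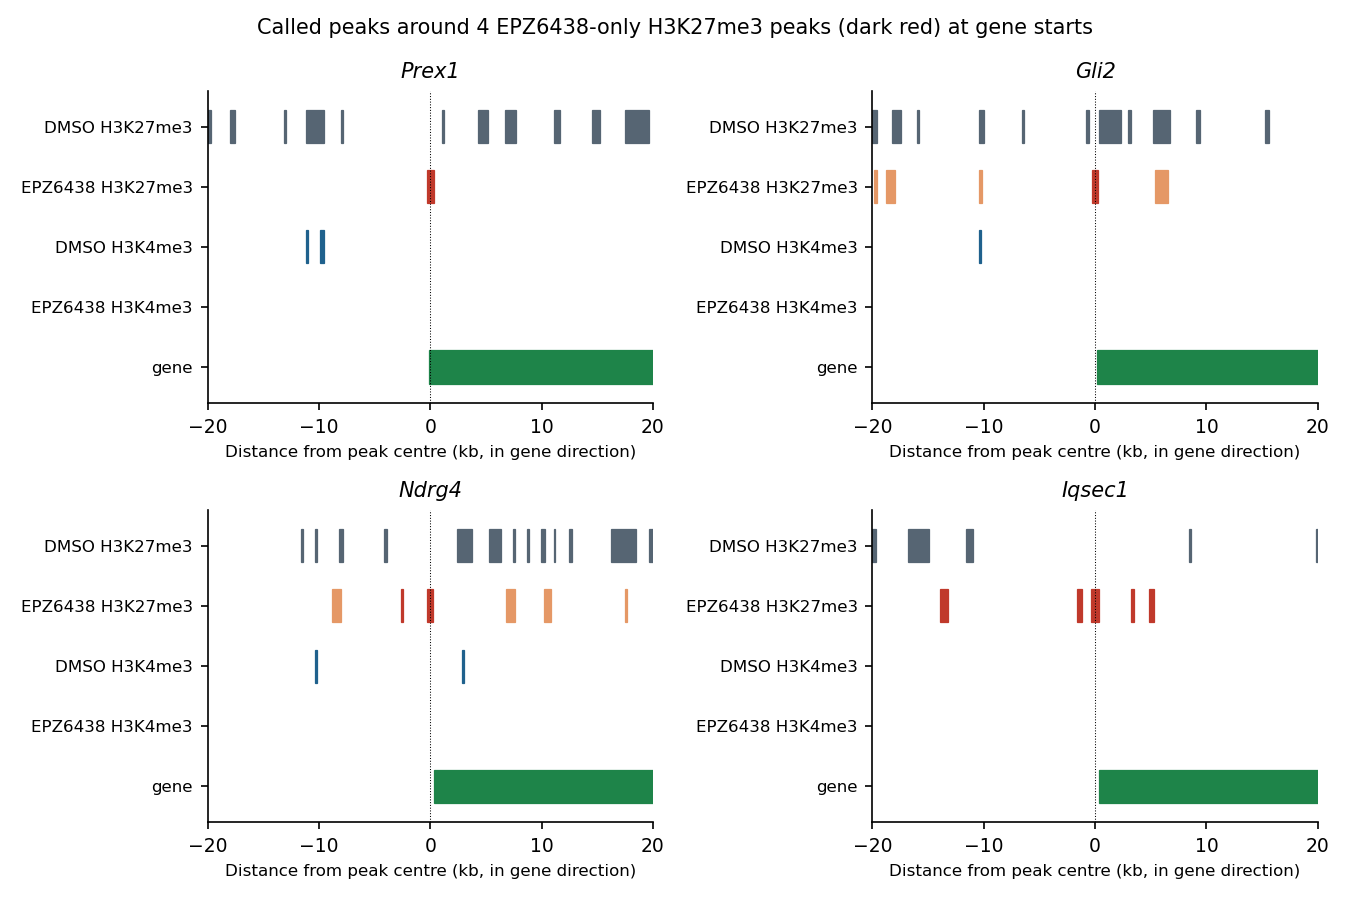
Called H3K27me3 and H3K4me3 peaks within 20 kb of the EPZ6438-only peak (dark red, at 0) at the starts of Prex1, Gli2, Ndrg4 and Iqsec1, by distance from the peak centre (kb, in the direction of the gene); box widths are peak widths, with no height. Around Prex1 11 DMSO peaks face 1 EPZ6438 peak, and around Iqsec1 all 5 EPZ6438 peaks are EPZ6438-only.

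The pathway and lineage lists held 9 of the 357 genes. These are 3.20% of the 281 listed genes in the table, against 0.824% of all genes and 1.01% of protein-coding genes. Gli2, a transcription factor of hedgehog signalling, had no read in DMSO and 9, 35 and 20 reads under EPZ6438, below the filter for testing. Against 3 reads over the DMSO group, Gli2 was 21.7-fold higher in reads scaled to library size. This takes the EPZ6438 reads as exact and leaves out their spread between libraries. The EPZ6438-only peak at Gli2 (470 bp) lay 96 bp from a DMSO peak, and the gene and its flanks had 44 DMSO and 4 EPZ6438 peaks. It was the only one of 22 hedgehog genes with such a peak, and of the 15 tested hedgehog genes 2 rose and 2 fell.

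Among 14 chondrocyte genes, Col9a1 and Matn1 had an EPZ6438-only peak. Matn1, a cartilage matrix protein gene, had 0, 1 and 0 reads in DMSO and 10, 8 and 2 under EPZ6438 and was not tested. Of the 10 tested chondrocyte genes 6 rose and 0 fell. The counts given here for each list cover mostly genes without an EPZ6438-only peak, and 3.80% of all tested genes rose and 3.24% fell. Smoc2 was the 1 such gene among 21 BMP and TGF-beta ligands and antagonists, of which 15 were tested, 4 rose and 0 fell. Among 13 Wnt antagonists Sfrp5 and Sost, and among 34 Wnt ligands and receptors Fzd3 and Wnt7a, had such a peak. All 4 were listed at 0 in all 6 libraries, so the called peak at their ends went with no RNA listed in either arm. Of the tested genes of these lists, 4 of 7 Wnt antagonists rose and 3 fell, and 7 of 22 ligands and receptors rose. Sost, an osteocyte inhibitor of Wnt signalling, was also the 1 of 25 osteoblast genes with such a peak, and of the 22 tested osteoblast genes 12 rose and 2 fell.

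None of the listed genes for enzymes that act on H3K27 (14 in the table), 13 of Polycomb repressive complex 1, 14 H3K4 enzymes, 5 H3K36 methyltransferases, 15 Wnt response genes or 19 interferon response genes had an EPZ6438-only peak at an end. The same held for the 7 blood, 6 endothelial, 7 adipocyte, 6 skeletal muscle and 8 neuronal markers. RNA of the drug's target was similar in both arms, with a mean of 14.4 RPKM of Ezh2 in DMSO and 14.8 under EPZ6438 (limma adjusted p = 0.839). Osteoblast lineage markers were abundant (Runx2 at 30.4 and Col1a1 at 2169 RPKM in DMSO). The defining blood marker Ptprc was at 0.000968 RPKM, the endothelial Pecam1 at 0.0381 and the muscle Myod1 listed at 0. Not all listed markers of other lineages were that low. The highest in DMSO had 15.6 RPKM among blood, 8.00 among neuronal and 3.30 among adipocyte markers. Among skeletal muscle and endothelial markers the highest had 0.811 and 0.0381 RPKM.

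Of the 25 genes with at least 1 RPKM in DMSO and an EPZ6438-only peak at an end, 24 were tested. Ndrg4 and Thsd4 were called, 2 of 24, a share near the 6.26% called over all 12109 tested genes at that level. Iqsec1, an exchange factor for ARF GTPases named after its values were seen, had 14.7, 17.9 and 20.1 RPKM in DMSO and 16.4, 18.8 and 17.7 under EPZ6438. The arms overlapped fully, and the log2 change was 0.01 (SE 0.13, limma adjusted p = 0.964). Within 20 kb of its peak neither list had an H3K4me3 peak, the nearest DMSO H3K27me3 peak was 8098 bp away, and the 5 EPZ6438 peaks were all EPZ6438-only. The 5 most abundant of the 357 genes were the pseudogenes Gm12481, Gm7332, Gm5601, Gm6485 and Gm29284. None was called, with limma adjusted p from 0.454 to 0.982, and their reads are uncertain because near-identical copies can share them.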

How the data were processed

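Expression was deposited by the authors as RPKM for 43346 genes, per the file headers, and the 37 mitochondrial genes were left out. Peaks were deposited by the authors as other values, start and end without height, 1 merged list per mark and arm. The genome build mm10 and the tools STAR 2.6.1c, Subread, MACS2, HOMER, Picard and DiffBind appear per the submitters' processing notes with no role assigned. Peak thresholds, the merging method and the annotation release were not found in the labels or headers.

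RPKM and gene length gave whole reads for 100% of values (tolerance 0.001) and totals of 18807156 to 25365513 reads per library. A floor of 3 reads is 0.118 to 0.160 reads for each 1000000 in the library, and intervals and floors cover counting error only. The test was that of limma 3.58.1 (trend, two-sided, R 4.3.3) on log2(RPKM + 0.1) for genes with at least 10 reads in at least 3 libraries, adjusted by the Benjamini-Hochberg method over 14213 genes. The planned count test was not used because the deposited unit is RPKM. On simulated reads of 14182 genes this test recovered 56% of genes changed 1.5-fold, 98% changed 2-fold and 94% changed 4-fold or 8-fold. Of its 186 calls 8.06% were false. The simulation gave every gene the same dispersion (spread between libraries beyond counting) of 0.01, which was not estimated from these libraries. These rates therefore may not hold for the real samples.

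Peaks overlapped when they shared at least 1 bp. Gene windows ran 1 kb to each side of both ends; strand came from the RefSeq promoter table (GRCm38.p6), which holds 17895 of the genes, and gene symbols from the deposited table. Peak lists have no replicates, so Wilson intervals (95%) describe counting only. Samples were grouped by their titles, and the RNA columns were matched to samples by arm and number.

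The genes named are the called genes, up to 10 in each direction, the 5 most abundant, those of 18 gene lists and those nearest the 5 widest and 5 farthest peaks; Nlrc5, Enpp5, Iqsec1, Rnf130, Sez6l, C130026I21Rik and the genes at H3K4me3 sites were added after their values were seen. The peaks, gene lists and tests were chosen with earlier results of these data known. Alternatives changed the pseudocount, filter, scaling, window, gap, width and libraries.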

Additional observations from a re-analysis of the deposited data

How the results depend on the processing

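No value changed direction under the alternatives run. The 13 called genes with an EPZ6438-only peak at an end became 8 without the read filter, 25 with a window of 5 kb, 8 with peaks at least 1 kb from a DMSO peak, 6 with peaks of at least 400 bp and 7 at gene starts alone, an alternative added after seeing the data. Leaving out 1 library gave 7 to 12. The 1001 called genes of the whole table became 628 without the read filter and 323 (without DMSO replicate 2) to 978 when 1 library was left out. Leaving out EPZ6438 replicate 1, 2 or 3 gave 445, 424 and 359. The median log2 change of 0.19 became 0.10 with a pseudocount of 1, 0.070 without the read filter, 0.10 with a window of 500 bp, 0.11 with 5 kb and 0.30 at gene starts alone, and 0.11 to 0.24 when 1 library was left out. Of the 13 calls, Pdzd2, Prex1, Epas1, Smoc2, Ndrg4 and Col9a1 held in all 12 settings of the RNA test.

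The 4961 EPZ6438-only peaks became 1104 with a gap of at least 5 kb, 8150 when less than 50% of a peak had to be covered by DMSO peaks, and 2004 with at least 400 bp. Their share at gene ends, 6.53%, became 8.58% for peaks of at least 400 bp, 4.54% with a window of 500 bp, 20.5% with 5 kb and 5.56% by midpoint, the last added after seeing the data. The share under EPZ6438 H3K4me3 became 0.383% when 50% of the peak had to be covered. The median distance to a DMSO peak became 1607.5 bp for peaks of at least 400 bp and 2988 bp with a gap of at least 1 kb.

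With the replicate number as a block, 1051 genes were called, and 11 of the 52 (11 higher, 0 lower). Same-numbered libraries deviated together with r = 0.410, 0.0781 and 0.0561, so the numbers were not taken to pair samples; DMSO replicate 1 and EPZ6438 replicate 1 correlated best with each other, which did not hold for every number. The planned count test on recovered reads was not run; limma's voom on those reads, added after seeing the data, called 1168 genes, and 14 of the 52 (13 higher, 1 lower). Depth limits the 192 genes listed at 0 and those below 10 reads, and peak lists without height or replicates limit all counts of peaks.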
